A study of Mus musculus with 35 samples.

Results

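The vacuolar proton pump (V-ATPase) was described here through 35 genes of 31053 in the deposited count tables, chosen by name as its subunits, accessory proteins, assembly factors and regulators. They comprised 13 genes of the V1 sector, 10 of the V0 sector, 3 accessory proteins, 3 assembly factors, 4 regulators of the RAVE type and 2 proteins of the TLDc family. Among them 5 isoforms, Atp6v1b1, Atp6v1c2, Atp6v1g3, Atp6v0a4 and Atp6v0d2, were set apart as kidney-enriched, and the other 30 genes formed the comparison class. RNA of whole kidneys from C57BL/6 mice at postnatal day 2, a precystic age, had been sequenced from the 3′ ends of transcripts in 35 libraries.

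In the Flcn cross, 5 Flcn KO libraries (Flcn flox/flox; Ksp-cre+) were compared with 5 control libraries of genotype Flcn flox/flox. The second cross, called the Tfeb cross here, had 4 Flcn/Tfeb DKO libraries (Tfeb flox/flox, Flcn flox/flox and Ksp-cre+) and 3 controls. The third, the Tfe3 cross, had 10 Flcn/Tfe3 DKO libraries (Flcn flox/flox and Ksp-cre+ on a Tfe3-/- background) and 8 controls. The controls of the last 2 crosses were labelled only as controls of their cross. Ksp-cre is driven by the promoter of Cdh16 and acts in collecting ducts, distal tubules and the thick ascending limb, whereas Tfe3-/- mice lack Tfe3 in every cell. Deposition was in sets. Set A held both the Flcn and the Tfeb cross, and the Tfe3 cross was split, with 6 DKO and 3 control libraries in set B and 4 DKO and 5 control libraries in set C. All values are bulk measurements, in which fewer cells of a type and less RNA per cell cannot be told apart.

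The V-ATPase is a rotary machine. Its cytosolic V1 sector hydrolyses ATP and turns a rotor that drives protons through the membrane-bound V0 sector. Most cells use it to acidify lysosomes and endosomes, where it also serves as a platform for nutrient signalling to mTORC1. Intercalated cells of the collecting duct carry a form with tissue-restricted subunits at the plasma membrane, which secretes acid into the urine, and loss of the B1 or a4 subunit causes distal renal tubular acidosis in patients. Folliculin, the product of Flcn, keeps the transcription factors Tfeb and Tfe3 out of the nucleus, and these factors are known to bind E-box motifs in promoters of lysosomal genes, several pump subunits among them.

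The libraries held between 1652649 and 4239356 counts on genes. CPM stands for counts scaled to a common library total. On the plain totals 3 counts, the floor used here, equalled 0.708 to 1.82 CPM, counting error alone being considered. All other CPM values also carry a scaling factor for each library (TMM scaling), computed within its cross. CPM values of different crosses therefore rest on separately computed factors. Counts of Flcn, Tfeb and Tfe3 did not mark the deletions. Flcn differed by log2 0.09, 0.11 and 0.20 from controls in the Flcn, Tfeb and Tfe3 crosses, and Tfe3 by −0.09 in the Tfe3 cross, while Tfeb was lower by 0.73 in the Tfeb cross with an unadjusted p of 0.0783. Reads from transcript 3′ ends can lie past a deleted exon, so these values do not check the labels, and the groups are named as labelled. In set A, 3 control libraries stood apart, namely control Flcn replicates 4 and 5 and control Flcn/Tfeb replicate 3. They held 4.47 to 4.93% mitochondrial counts against 7.33 to 11.9% in the other 14 libraries of the set, and the members whose values depend most on them are given with and without them. The threshold of 5% that separates them was chosen after the data had been seen.

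In the libraries labelled Flcn KO 2 kidney-enriched pump subunits rose, and most of the other pump genes had fold changes above 0 without passing the test. Of the 35 genes, 32 passed the count filter in each cross, and Atp6v1e2, Atp6v0c and Rnasek did not, with 6, 35 and 6 counts over all libraries. Among the 32 tested genes 27 had a log2 fold change above 0, beside 48.5% of all 11932 genes tested. The median was 0.74 for the kidney-enriched isoforms, which ranged from −0.02 to 1.31, and 0.19 for the other members, which reached 0.73, against −0.01 over all genes. By edgeR's quasi-likelihood test with Benjamini-Hochberg adjustment over all genes, 2 members rose, Atp6v1g3 and Atp6v0d2, where 0.453% of all genes were called higher and 0.067% lower. DESeq2 called 5 higher, these 2 with Atp6v1c2, Atp6v1f and Atp6ap1, beside 0.796% of all genes. At an unadjusted p under 0.05, 12 members were higher and 0 lower, beside 5.25% and 3.81% of all genes. In 7 members all KO libraries lay above all controls, which held for 1.67% of all genes. These 7 were Atp6v1c2, Atp6v1f, Atp6v1g3, Atp6v0b, Atp6v0d2, Atp6v0e and Atp6ap1.

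In the Flcn/Tfeb DKO libraries 0 of the 32 tested members were called by edgeR's quasi-likelihood test and 0 by DESeq2. Of 12469 genes tested in that cross 0% were called at all, and a simulated 2-fold change was recovered in 16% of 200 genes there, against 75.5% in the Flcn cross and 82.5% in the Tfe3 cross. At an unadjusted p under 0.05, 3 members were higher (Atp6v1g1, Ccdc115 and Dmxl2), beside 1.85% of all genes, and 0 were lower, beside 3.21%. Members above 0 numbered 17, beside 47.9% of all genes, with a median of 0.07 for the kidney-enriched isoforms, 0.01 for the others and −0.02 over all genes. In 4 members the DKO libraries lay wholly above the controls, which held for 2.71% of all genes.

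In the Flcn/Tfe3 DKO libraries 3 members rose, Atp6v1c2, Atp6v0d2 and Atp6v1d, where 0.337% of 12456 genes were called higher and 0.0401% lower. DESeq2 called 5 higher, these 3 with Atp6v1e1 and Atp6v1g3, beside 0.626% of all genes. At an unadjusted p under 0.05, 8 members were higher, beside 3.67% of all genes, and 2 were lower, Atp6v1g1 and Ccdc115, beside 3.48%. Members above 0 numbered 22, beside 51.9% of all genes. The median was 0.69 for the kidney-enriched isoforms, 0.04 for the others and 0.01 over all genes. In 2 members, Atp6v1c2 and Atp6v0d2, all DKO libraries lay above all controls, which held for 0.12% of all genes.

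**Figure D1:**
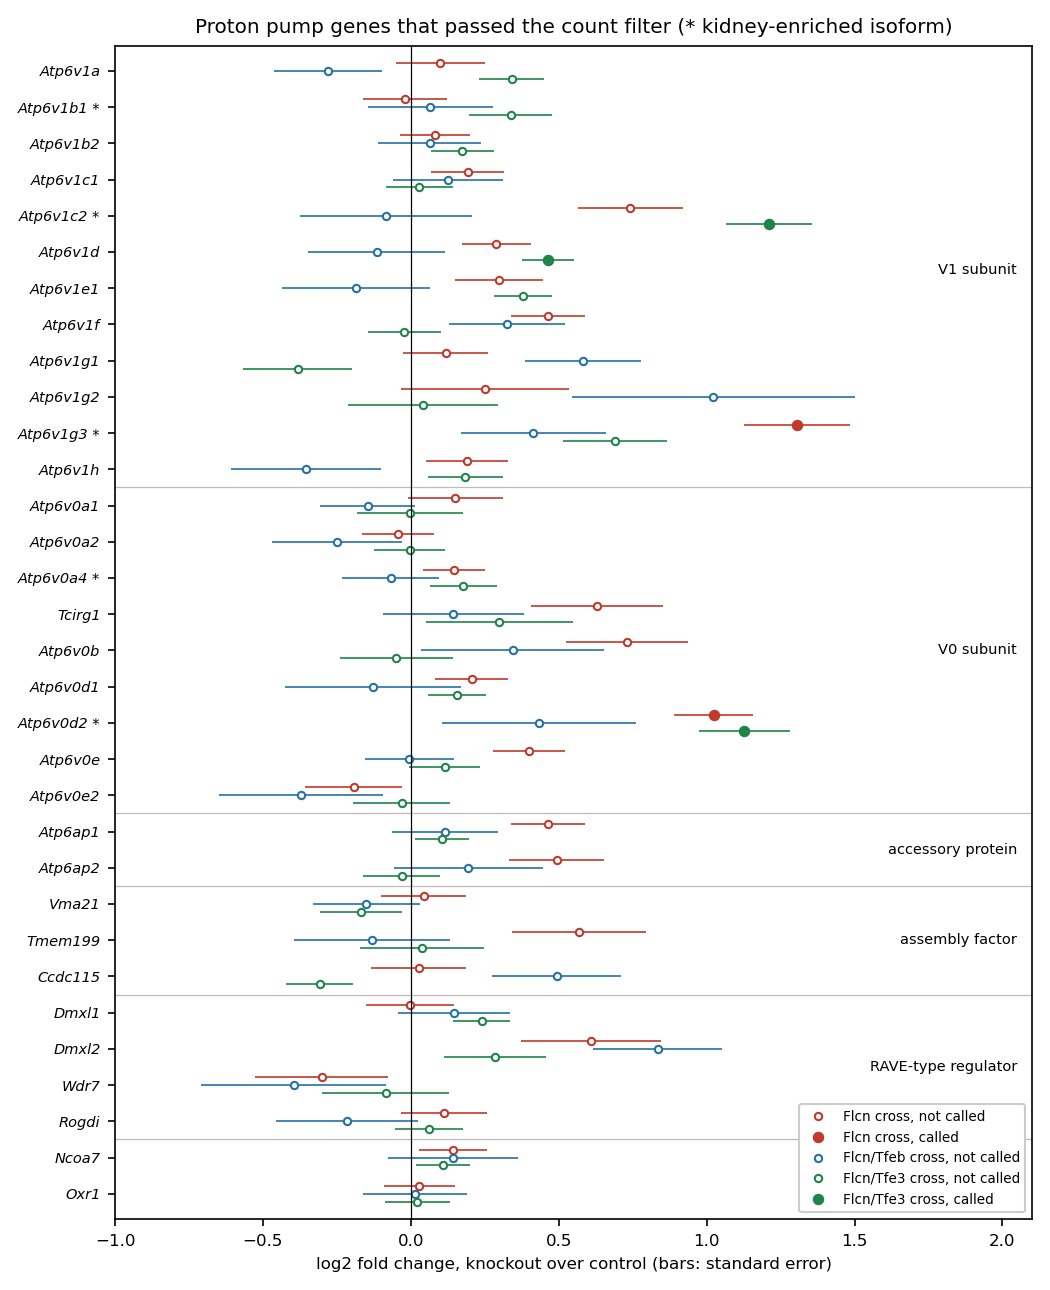
Log2 fold change, knockout over control (x axis), of each tested pump gene (listed along the y axis) in the 3 crosses, with bars for the standard error and asterisks for the kidney-enriched isoforms. Atp6v1g3, Atp6v0d2 and Atp6v1c2 stand at 0.69 or higher in the Flcn and Tfe3 crosses.

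Atp6v1g3 encodes the kidney-enriched G3 subunit of the peripheral stalk that holds V1 in place, and lies at chr1:138273738-138289462 on the plus strand of mm10. Within the Flcn cross it had 144, 129, 141, 77.3 and 76.8 CPM in the 5 controls and 268, 243, 316, 329 and 238 CPM in the 5 KO libraries. Every KO library lay above every control, and the 2 lowest controls were those with few mitochondrial counts. The log2 fold change was 1.31 (SE 0.18, adjusted p = 0.00086), a 2.47-fold difference, and 1.01 (adjusted p = 0.000235) without those controls.

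In the Tfeb cross Atp6v1g3 had 162, 168 and 76.9 CPM in the controls and 172, 182, 183 and 180.4 CPM in the DKO libraries. The DKO libraries lay above all controls, but closely above the first 2, and the difference of 0.41 (SE 0.25, adjusted p = 0.797) became 0.12 (adjusted p = 0.954) without control replicate 3. In the Tfe3 cross the lowest, median and highest control stood at 82.7, 138 and 213 CPM and the DKO libraries at 167, 204 and 294 CPM. The groups overlapped, and the log2 fold change was 0.69 (SE 0.18, adjusted p = 0.106). The sets gave different values, a difference that was not tested. In set B Atp6v1g3 was higher by 1.23 (adjusted p = 0.0128), and in set C by 0.19 (adjusted p = 0.591). Fitted alone, set B called 8 of 13191 genes and set C 569 of 12169. Adjusted p-values of the sets, here and below, therefore do not compare directly.

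Atp6v0d2 encodes the d2 subunit of the central stalk, which couples V1 rotation to V0 and is also known from osteoclasts. It lies at chr4:19876841-19922605 on the minus strand. In the Flcn cross it had 22.5, 20.7, 26.8, 25.5 and 21.8 CPM in the controls and 45.2, 44.6, 54.0, 53.2 and 42.6 CPM in the KO libraries. The groups did not overlap, and the controls with few mitochondrial counts lay among the others. Its log2 fold change was 1.02 (SE 0.13, adjusted p = 0.000644), a 2.03-fold difference.

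Within the Tfe3 cross the controls of Atp6v0d2 stood at 13.1, 27.5 and 33.1 CPM (lowest, median and highest) and the DKO libraries at 40, 56.0 and 70.7 CPM. All 10 DKO libraries were above all 8 controls, and the log2 fold change was 1.13 (SE 0.15, adjusted p = 0.000187). Within set B it was 0.81 (adjusted p = 0.105) and within set C 1.42 (adjusted p = 0.0037). Within the Tfeb cross the controls had 8.36, 11.6 and 23.9 CPM and the DKO libraries 18.8, 22.2, 19.4 and 22.2 CPM. There the highest value was control replicate 3, and the difference of 0.43 (SE 0.33, adjusted p = 0.800) was 1.04 (adjusted p = 0.932) without it and 0.17 (adjusted p = 0.832) without control replicate 1.

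Atp6v1c2 encodes the kidney-enriched C2 subunit, which joins the stalks to the V0 a subunit and is released when the pump disassembles. It lies at chr12:17284721-17329359 on the minus strand. For the Tfe3 cross the controls had 8.28, 10.3 and 13.4 CPM and the DKO libraries 20.04, 23.6 and 31.9 CPM (lowest, median and highest). The groups were separate, with a log2 fold change of 1.21 (SE 0.15, adjusted p = 2.6e-05), and the call held within set B (1.37, adjusted p = 0.0278) and within set C (1.02, adjusted p = 0.0154).

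Within the Flcn cross Atp6v1c2 had 13.4, 20.2, 15.5, 15.4 and 13.2 CPM in the controls and 21.9, 21.3, 26.2, 29.7 and 30.6 CPM in the KO libraries. These groups were also separate, but the difference of 0.74 (SE 0.18) missed the threshold (adjusted p = 0.0774). It passed without control Flcn replicate 2 (0.85, adjusted p = 0.0486), and without the 2 controls under 5% mitochondrial counts it was 0.66 (adjusted p = 0.305). For the Tfeb cross the controls had 10.6, 12.1 and 18.4 CPM and the DKO libraries 13.1, 12.3, 16.9 and 10.4 CPM, a difference of −0.08 (SE 0.29, adjusted p = 0.946) that was 0.22 without control replicate 3. The 3′ end of Atp6v1c2 lies within 500 bases of Pdia6 on the opposite strand, which held 30976 counts over all libraries against 1965 for Atp6v1c2. How strand was used in counting is not given in the sources used here, so reads of the 2 genes may not have been kept apart.

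Atp6v1b1 and Atp6v0a4, the isoforms of the catalytic ring and of the proton channel that are mutated in renal tubular acidosis, were not called in any cross. Atp6v1b1 had 40.3, 40.9, 42.3, 42.6 and 32.1 CPM in the controls of the Flcn cross and 30.6, 44.0, 39.5, 33.5 and 45.0 CPM in the KO libraries. The groups lay over each other, with a log2 fold change of −0.02 (SE 0.14, adjusted p = 0.983, 95% interval −0.30 to 0.26). It was 0.07 (SE 0.21, adjusted p = 0.940) in the Tfeb cross and 0.34 (SE 0.14, adjusted p = 0.563) in the Tfe3 cross.

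Atp6v0a4 had 147, 169.9, 154, 134 and 145 CPM in the controls of the Flcn cross and 165, 175, 159, 151 and 178 CPM in the KO libraries. The groups overlapped, with a difference of 0.15 (SE 0.10, adjusted p = 0.692). In the Tfeb cross it was −0.07 (SE 0.16, adjusted p = 0.920) and in the Tfe3 cross 0.18 (SE 0.11, adjusted p = 0.793). Atp6v0a4 overlaps the genes Tmem213 and D630045J12Rik away from its 3′ end.

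**Figure D2:**
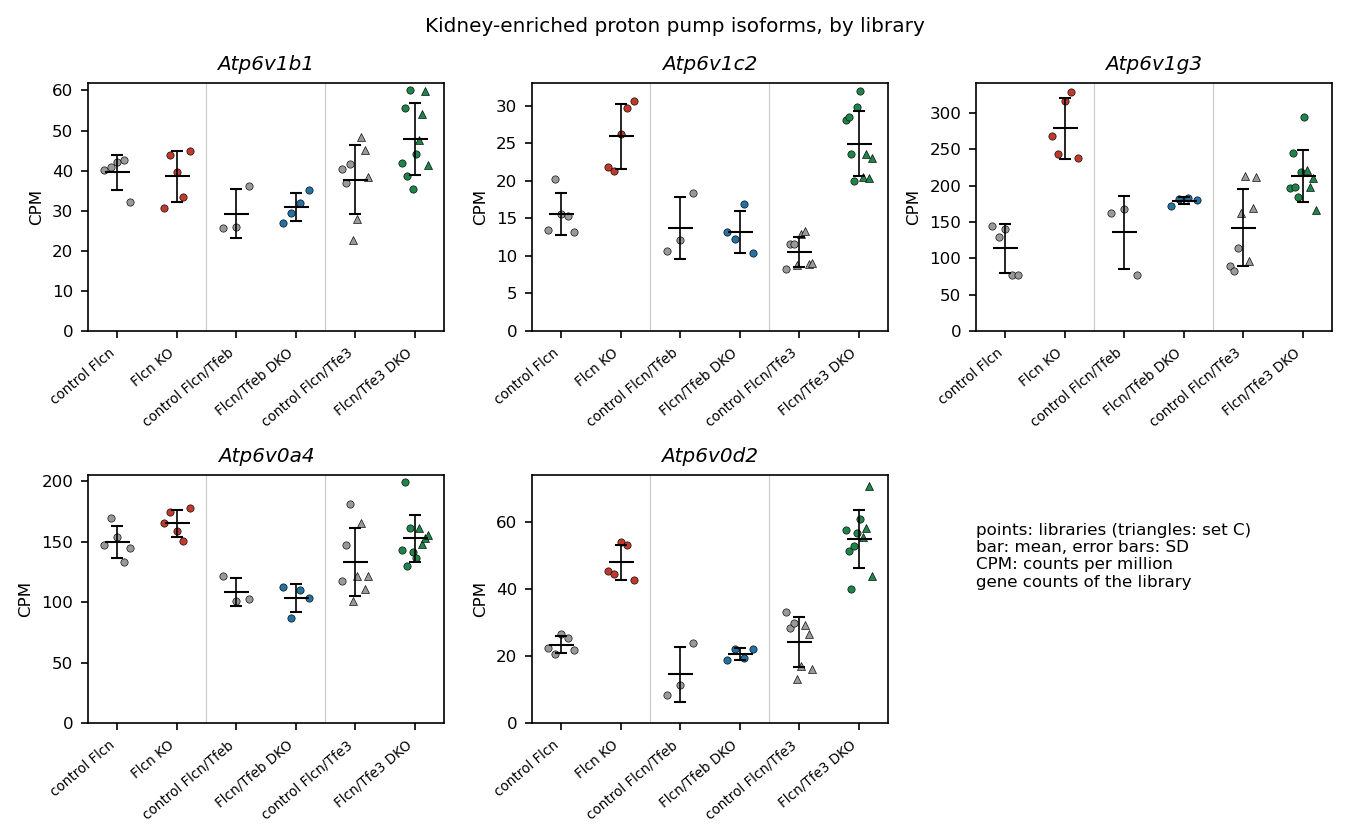
CPM of the 5 kidney-enriched isoforms in each library (y axis, from 0) for controls and knockouts of the 3 crosses; points are libraries, bars are means and error bars are SD. Atp6v0d2 and Atp6v1c2 knockout libraries lie above their controls in the Flcn and Tfe3 crosses, and the low Atp6v1g3 controls of set A stand between 76.8 and 77.3 CPM.

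Each kidney-enriched isoform has a more widely used counterpart, and the log2 ratio between them, with 0.5 CPM added to each, was compared between groups as a description. The ratio of Atp6v1g3 to Atp6v1g1 was higher by 1.21 in the Flcn KO libraries, all of which lay above the controls, and by 1.05 in the Flcn/Tfe3 DKO libraries. In the Flcn/Tfeb DKO libraries it differed by −0.12. This ratio also moved with its counterpart. In set C of the Tfe3 cross it was higher by 1.01, where Atp6v1g1 itself differed by −0.84. In the Tfeb cross the fold change of Atp6v1g1 (0.58) was larger than that of Atp6v1g3 (0.41). For Atp6v0d2 over Atp6v0d1 the differences were 0.80, 0.66 and 0.93 in the Flcn, Tfeb and Tfe3 crosses, with separate groups in the Flcn cross and in both sets of the Tfe3 cross. Over both sets together, to which the 0.93 belongs, the groups overlapped, as they did in the Tfeb cross. The Atp6v1c2 to Atp6v1c1 ratio was higher by 1.11 in the Flcn/Tfe3 DKO libraries, again with separate groups in both sets, and by 0.54 in the Flcn KO libraries, and differed by −0.16 in the Flcn/Tfeb DKO libraries. The balance of Atp6v1b1 to Atp6v1b2 moved by −0.13, 0.01 and 0.10, and that of Atp6v0a4 to Atp6v0a1 by −0.01, 0.08 and 0.21.

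**Figure D3:**
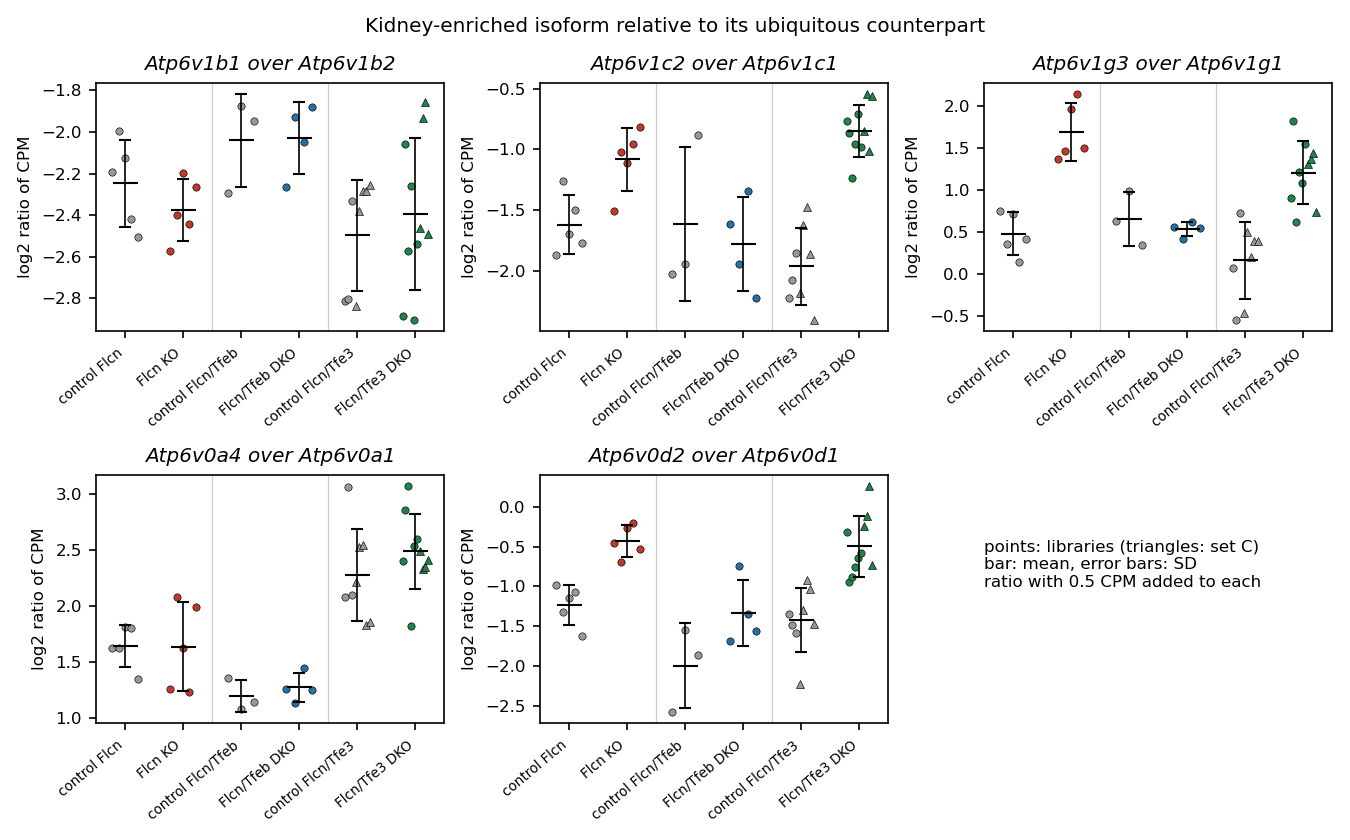
Log2 ratio of each kidney-enriched isoform to its widely used counterpart (y axis) in each library of the 3 crosses; points are libraries, bars are means and error bars are SD. The G3, d2 and C2 ratios are shifted upward in the Flcn and Tfe3 crosses by 0.54 to 1.21, and the B1 and a4 ratios by at most 0.21. A ratio can shift through the isoform or through its counterpart.

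The counterparts themselves were not called in any cross by edgeR's test over all its libraries. Atp6v1b2, the widely used B subunit, differed by 0.08 (SE 0.12), 0.06 (SE 0.17) and 0.17 (SE 0.11) in the Flcn, Tfeb and Tfe3 crosses, with adjusted p of 0.786 or more. In the same order the C1 subunit gene Atp6v1c1 differed by 0.19 (SE 0.12), 0.13 (SE 0.19) and 0.03 (SE 0.11), with adjusted p of 0.660 or more. Atp6v0a1, the a1 isoform of the proton channel, differed by 0.15 (SE 0.16), −0.15 (SE 0.16) and −0.0020 (SE 0.18), with adjusted p of 0.803 or more. The d1 subunit gene Atp6v0d1 differed by 0.21 (SE 0.12), −0.13 (SE 0.30) and 0.16 (SE 0.10), with adjusted p of 0.638 or more. Without control Flcn/Tfeb replicate 3, Atp6v1b2, Atp6v1c1 and Atp6v0d1 stood at 0.19, −0.01 and 0.32 in the Tfeb cross. Without control replicate 2 Atp6v0d1 stood at −0.38 there. Atp6v1g1, the G1 subunit gene, differed by 0.12 (SE 0.14, adjusted p = 0.832) in the Flcn cross and had values of opposite sign in the double knockouts. Within the Tfeb cross it had 104, 84.4 and 60.7 CPM in the controls and 116, 136, 119 and 124 CPM in the DKO libraries. The DKO libraries lay above the controls, with a difference of 0.58 (SE 0.20, unadjusted p = 0.013, adjusted p = 0.797). In the Tfe3 cross the difference was −0.38 (SE 0.19, unadjusted p = 0.0495, adjusted p = 0.696), made up of −0.84 in set C (adjusted p = 0.0245) and 0.10 in set B (adjusted p = 0.923).

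Single markers of intercalated cells rose in the Flcn and Tfe3 crosses. The summed level of 14 such markers, among them Foxi1, Slc4a1, Slc26a4 and Aqp6, was 429 to 535 CPM in the Flcn KO libraries and 282 to 354 CPM in their controls, without overlap. It was 263 to 336 CPM in the Flcn/Tfeb DKO libraries against 259 to 376 CPM, and 346 to 451 CPM in the Flcn/Tfe3 DKO libraries against 296 to 388 CPM. None of the 14 was at 0 in a whole group. Called higher were Aqp6, a water and anion channel (2.06 in the Flcn cross and 1.81 in the Tfe3 cross), and Rhcg, an ammonia channel (0.72 in the Flcn cross). In the Flcn cross these were 2 of 12 tested markers, in the Tfe3 cross 1 of 14 and in the Tfeb cross 0 of 13 by edgeR's test. That test called 0.453%, 0.337% and 0% of all genes higher in these crosses. At an unadjusted p under 0.05, 6, 6 and 1 markers were higher in the Flcn, Tfe3 and Tfeb crosses, beside 5.25%, 3.67% and 1.85% of all genes. In each cross 0 were lower, beside 3.81%, 3.48% and 3.21%. The markers above 0 numbered 8, 12 and 7, beside 48.5%, 51.9% and 47.9% of all genes, with medians of 0.26, 0.29 and 0.17.

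Set against that sum, the isoforms parted. Per unit of summed marker CPM, Atp6v1g3 stood at 0.579 ± 0.068 (SD, n = 5) in the Flcn KO libraries and 0.347 ± 0.085 (SD, n = 5) in the controls, without overlap. Within the Tfe3 cross the same measure was 0.515 ± 0.072 (SD, n = 10) against 0.442 ± 0.189 (SD, n = 8), with overlap. The values of this cross pool both sets. Taken by set, the Atp6v1g3 measure was higher in every DKO library than in every control of set B, and overlapped in set C. Atp6v0d2 was 0.132 ± 0.016 (SD, n = 10) per marker unit in the Flcn/Tfe3 DKO libraries against 0.0730 ± 0.0208 (SD, n = 8), and Atp6v1c2 0.0605 ± 0.0108 (SD, n = 10) against 0.0320 ± 0.0052 (SD, n = 8), both without overlap. Within the Flcn cross these 2 isoforms overlapped on this measure, at ratios of 1.37 and 1.13. In the Flcn/Tfeb DKO libraries Atp6v0d2, Atp6v1c2 and Atp6v1g3 per marker unit stood at 1.49, 0.973 and 1.23 times their controls, all with overlap. Atp6v0a4 per marker unit was lower in the Flcn KO libraries, 0.347 ± 0.050 (SD, n = 5) against 0.463 ± 0.018 (SD, n = 5). With the log2 marker sum as a covariate, an alternative added after seeing the data, 0 members were called by edgeR's quasi-likelihood test in the Flcn and Tfe3 crosses, where it called 0% and 0.0161% of all genes higher. At an unadjusted p under 0.05 this fit had 4 members higher and 3 lower in the Flcn cross, beside 5.76% and 7.98% of all genes. The Tfe3 cross had 6 higher and 1 lower, beside 3.11% and 2.99%. Atp6v1g3 then stood at 0.24 (SE 0.35, adjusted p = 0.817), Atp6v0d2 at 0.91 (SE 0.37, adjusted p = 0.266) and Atp6v1c2 at 0.62 (SE 0.46, adjusted p = 0.586) in the Flcn cross. There the marker sum itself separated the groups and the standard errors of these 3 genes were 0.18, 0.13 and 0.18 without it, so the loss of the calls cannot be read as a dependence on the markers. For the Tfe3 cross Atp6v1c2 stood at 1.07 (adjusted p = 0.146), Atp6v0d2 at 0.64 (adjusted p = 0.749) and Atp6v1g3 at 0.74 (adjusted p = 0.793). The same fit called 0 members in the Tfeb cross. Atp6v1g3 stood there at 0.53 (adjusted p = 0.175), Atp6v0d2 at 0.52 (adjusted p = 0.348) and Atp6v1c2 at −0.06 (adjusted p = 0.939). Atp6v0b stood at 0.54 (adjusted p = 0.214) in that fit. The share of these markers in the change of the pump isoforms was not tested beyond these values.

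**Figure D4:**
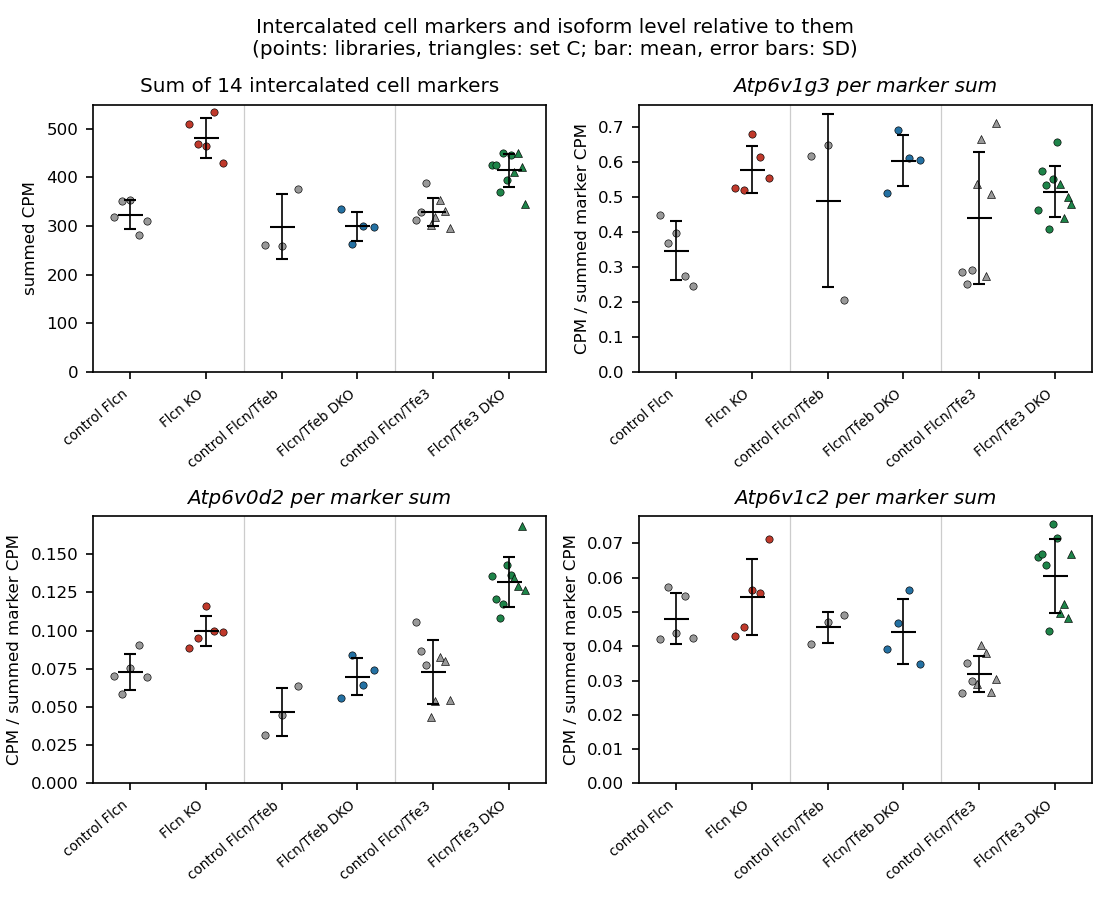
Summed CPM of 14 intercalated cell markers and the CPM of pump isoforms divided by that sum (y axes, from 0) in each library; points are libraries (triangles for set C), bars are means and error bars are SD. The marker sum of the Flcn KO libraries, 429 to 535 CPM, lies above its controls, and Atp6v0d2 and Atp6v1c2 relative to it lie above controls in the Tfe3 cross.

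Among the widely used V1 subunits, 1 passed edgeR's test without covariates over all libraries of a cross. Atp6v1d, the D subunit of the rotor shaft at chr12:78840725-78861638, had 124, 154 and 217 CPM in the controls of the Tfe3 cross and 209.7, 229 and 274 CPM in the DKO libraries (lowest, median and highest). The groups met at their edges, and the log2 fold change was 0.46 (SE 0.09, adjusted p = 0.011). Within set C it was 0.58 (adjusted p = 0.015) and within set B 0.30 (adjusted p = 0.752), and with the mitochondrial share as a covariate it was 0.40 (adjusted p = 0.0652). Set C alone called 569 of 12169 genes, and set B alone 8 of 13191. In the Flcn cross Atp6v1d had 158, 164, 179, 202 and 219 CPM in the controls and 219, 241, 243, 201 and 223 CPM in the KO libraries. The 2 highest controls were those with few mitochondrial counts, and the difference of 0.29 (SE 0.12) was not called (adjusted p = 0.444). Without these 2 controls it was 0.44 (adjusted p = 0.102).

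The catalytic A subunit gene Atp6v1a stood at 242, 431 and 510.4 CPM in the Tfe3 cross controls and at 508, 554 and 602 CPM in the DKO libraries. Its difference of 0.34 had an adjusted p of 0.341. The stalk subunit gene Atp6v1e1 differed by 0.38 there (adjusted p = 0.121). For the Tfeb cross these 2 genes stood at −0.28 and −0.18, and the regulatory H subunit gene Atp6v1h, which ranged from 26.6 to 78.7 CPM over all libraries, at −0.36, none of them called. Without control Flcn/Tfeb replicate 3 they stood at −0.10, 0.22 and 0.03, so the last 2 changed sign. In the Flcn cross Atp6v1a and Atp6v1e1 stood at 0.10 and 0.30, and at 0.35 and 0.50 without the 2 controls with few mitochondrial counts.

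Atp6v1f, the F subunit of the rotor, had 742, 606, 588, 504 and 535 CPM in the controls of the Flcn cross and 769, 889.6, 807, 839 and 795 CPM in the KO libraries. All KO libraries were higher, with a difference of 0.46 (adjusted p = 0.152 by edgeR) that was called by DESeq2 and with the mitochondrial share as a covariate. In the Tfe3 cross it differed by −0.02, made up of 0.26 in set B and −0.30 in set C, neither called. Of 251 words of 50 bases in the transcript end of Atp6v1f, 7 also occur in the gene AC169506.3, so a few of its reads may not be unique. Atp6v1g2, the G subunit of neurons, had 2.23, 7.73 and 4.12 CPM in the Tfeb cross controls and 5.26, 10.5, 8.27 and 14.1 CPM in the DKO libraries. The groups overlapped near the floor of these libraries, and the difference of 1.02 (SE 0.48) was not called (adjusted p = 0.797). The sum of 5 neuron markers was 14.7 to 89.3 CPM in the Flcn/Tfeb DKO libraries and 8.92 to 17.1 CPM in their controls, and its part in the level of Atp6v1g2 was not tested.

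In the V0 sector no widely used subunit was called within a cross by edgeR's test over all its libraries without covariates. The ring subunit gene Atp6v0b had 479.6, 455, 434, 199 and 245 CPM in the controls of the Flcn cross and 523, 638, 605, 709 and 523 CPM in the KO libraries. The KO libraries lay above all controls, and the 2 lowest controls were those with few mitochondrial counts. The difference was 0.73 (adjusted p = 0.180), and 0.40 (adjusted p = 0.240) without them. With the mitochondrial share as a covariate it was 0.70 and was called (adjusted p = 0.000549). In the Tfeb cross the controls had 589, 689 and 232 CPM and the DKO libraries 641, 678, 639 and 596 CPM. There again 1 low control, replicate 3, set the difference, which was 0.34 with it and −0.00081 without it. For the Tfe3 cross Atp6v0b differed by −0.05, made up of 0.56 in set B (unadjusted p = 0.00345, adjusted p = 0.653) and −0.62 in set C (unadjusted p = 0.00693, adjusted p = 0.086).

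Atp6v0e, a small membrane subunit, had 223, 189, 173, 145 and 149 CPM in the Flcn cross controls and 229, 236, 230.3, 236 and 227 CPM in the KO libraries. Its groups were separate by a narrow margin, at a difference of 0.40 (adjusted p = 0.259), and 0.25 without the 2 controls with few mitochondrial counts. Atp6v0e stood at 0.11 in the Tfe3 cross, where set B gave 0.45 and set C −0.22. Tcirg1, the a3 isoform best known from osteoclasts, ranged from 4.32 to 29.7 CPM over all 35 libraries and differed by 0.63 in the Flcn cross with an unadjusted p of 0.0113. The remaining V0 genes, Atp6v0a2 (24.6 to 47.0 CPM over all libraries) and Atp6v0e2 (12.3 to 34.8 CPM), stood at −0.04 and −0.19 there and at −0.25 and −0.37 in the Tfeb cross, and neither reached an unadjusted p under 0.05 in the Tfe3 cross. Counts of Atp6v0c, the proteolipid of the rotor ring, cannot be read as its level, since 251 of the 753 words of 50 bases at its transcript ends are shared with the pseudogenes Atp6v0c-ps1 and Atp6v0c-ps2. For Rnasek all such words are shared with the gene Gm21988.

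The accessory proteins Atp6ap1 and Atp6ap2 are needed for assembly of V0 and for its exit from the endoplasmic reticulum. Atp6ap1 had 269.8, 287, 244, 194 and 245 CPM in the controls of the Flcn cross and 339, 373, 315, 382 and 298 CPM in the KO libraries. The groups did not overlap, and the difference of 0.46 was not called by edgeR's test (adjusted p = 0.145), but was by DESeq2 and with the mitochondrial share as a covariate. Atp6ap2, also known as the prorenin receptor, had 294, 259.9, 231, 171 and 153 CPM against 337, 292, 295, 363 and 268 CPM. These groups overlapped, at a difference of 0.49 with an unadjusted p of 0.00688. The 2 lowest controls were again those with few mitochondrial counts, and without them the difference was 0.25 (unadjusted p = 0.0552). Within the Tfeb cross the 2 genes differed by 0.12 and 0.19, and without control replicate 3 by −0.04 and −0.08. In the Tfe3 cross they differed by 0.11 and −0.03, the latter made up of 0.21 in set B and −0.28 in set C.

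Of the assembly factors of V0, Tmem199 differed by 0.57 in the Flcn cross (unadjusted p = 0.0222), Vma21 by 0.04 and Ccdc115 by 0.03. Without the 2 controls with few mitochondrial counts Tmem199 differed by 0.31 (unadjusted p = 0.165). Ccdc115 had values of opposite sign in the double knockouts. For the Tfeb cross it had 33.4, 30.9 and 20.9 CPM in the controls and 43.9, 39.4, 41.0 and 33.6 CPM in the DKO libraries, which lay just above the controls. That difference was 0.49 (unadjusted p = 0.0458), and in the Tfe3 cross it was −0.31 (unadjusted p = 0.012), neither of them called after adjustment (p = 0.797 and 0.448). Without control replicate 3 the difference in the Tfeb cross was 0.30 (unadjusted p = 0.138).

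The RAVE-type proteins bring V1 and V0 back together. Dmxl2 had 19.5, 18.8 and 13.7 CPM in the Tfeb cross controls and 33.4, 28.9, 30.9 and 28.8 CPM in the DKO libraries. The groups were well separated, at 0.84 (SE 0.22, unadjusted p = 0.00279), yet not called (adjusted p = 0.797). Within the Flcn cross Dmxl2 differed by 0.61, which was 0.26 without the 2 controls with few mitochondrial counts. Its relative Dmxl1, at 33.9 to 91.9 CPM over all libraries, differed by −0.0030 in the Flcn cross, 0.15 in the Tfeb cross and 0.24 in the Tfe3 cross. Without the controls with few mitochondrial counts the first 2 values were −0.14 and −0.01. Rogdi, at 20.3 to 56.5 CPM, stood at 0.11, −0.22 and 0.06 in the Flcn, Tfeb and Tfe3 crosses. Wdr7, a partner of the Dmxl proteins, was below 0 throughout, at −0.30 (SE 0.22), −0.40 (SE 0.31) and −0.08 (SE 0.21), and was not called. Without the controls with few mitochondrial counts it stood at −0.09 and −0.22 in the Flcn and Tfeb crosses. Ncoa7 and Oxr1, whose TLDc domains bind V1, stood between 0.01 and 0.14 in all crosses. Without those controls Ncoa7 was 0.01 in the Flcn cross, and Ncoa7 and Oxr1 were −0.08 and −0.09 in the Tfeb cross. The 3′ end of Ncoa7 lies near Hint3 on the same strand.

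The share of mitochondrial counts moved with several members. Among the set A controls, the 3 libraries under 5% held 77.3, 76.8 and 76.9 CPM of Atp6v1g3, and the other 5 held 129 to 168 CPM. The same 3 libraries had 199, 245 and 232 CPM of Atp6v0b, and the others 434 to 689 CPM. These controls span the Flcn and Tfeb crosses, whose TMM factors were computed separately. For these genes the low libraries also stood below the other controls of their own cross. Without the 3 libraries 2 members were called in the Flcn cross, beside 0.335% of all genes called higher, with medians of 0.66 for the kidney-enriched isoforms and 0.14 for the others, and 24 of 32 members above 0. In the Tfeb cross 0 members were called without control replicate 3 by edgeR's quasi-likelihood test, with 3 higher at an unadjusted p under 0.05 (Atp6v1g1, Atp6v0d2 and Dmxl2), beside 2.96% of all genes. The sign of the fold change turned in 3 of 32 members in the Flcn cross and in 14 of 32 in the Tfeb cross. With the mitochondrial share as a covariate, 7 members were called higher in the Flcn cross, beside 1.03% of all genes. They were Atp6v1c2 (0.70, adjusted p = 0.0423), Atp6v1f, Atp6v1g3, Atp6v0b, Atp6v0d2, Atp6ap1 and Atp6ap2. Within the Tfe3 cross this fit called Atp6v1c2, Atp6v0d2 and Atp6v1g3 (0.86, adjusted p = 0.0415), beside 0.217% of all genes called higher.

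**Figure D5:**
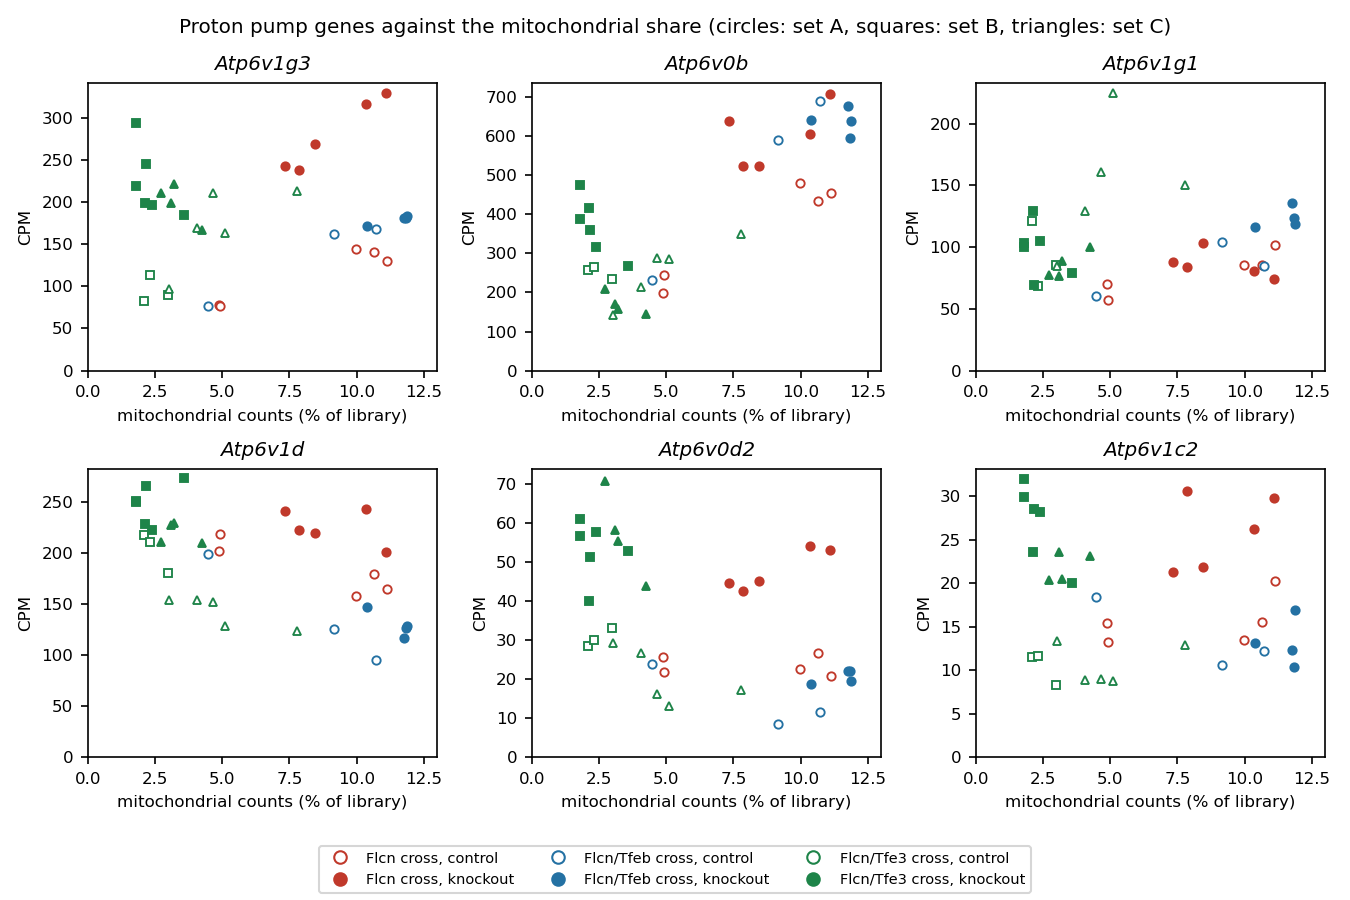
CPM of pump genes (y axis, from 0) against the percentage of mitochondrial counts in the library (x axis) for all 35 libraries; circles are set A, squares set B and triangles set C. The 3 set A controls at 4.47 to 4.93% stand low in Atp6v1g3 and Atp6v0b beside the other controls of that set. The scaling factors in the CPM values were computed within each cross.

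Whether the crosses differed was tested on the difference of their effects in 1 model. For Flcn/Tfeb less Flcn, 0 of 32 members were called by edgeR's quasi-likelihood test, where 0.0153% of 13049 genes were called lower and 0% higher. With no adjustment and p under 0.05, 3 members were lower, beside 3.76% of all genes, and 0 higher, beside 2.24%. Of the 32 members 7 were above 0, beside 46.6% of all genes. Atp6v1g3 differed by −0.89 (95% interval −1.51 to −0.27, adjusted p = 0.738), Atp6v1c2 by −0.83 and Atp6v0d2 by −0.62. For Flcn/Tfe3 less Flcn the test called 0 members, where 0% of 13209 genes were called. With no adjustment 1 member was higher and 5 lower, beside 3.46% and 3.96% of all genes, and 12 members lay above 0, beside 52.3%. Atp6v1c2 differed by 0.47, Atp6v1g3 by −0.61 and Atp6v0b by −0.78 (adjusted p = 0.661). With set C alone in place of both sets this comparison called 4 members lower (Atp6v1f, Atp6v1g1, Atp6v1g3 and Atp6v0b), beside 2.69% of all genes. For Flcn/Tfe3 less Flcn/Tfeb it again called 0 members, where 0.022% of 13637 genes were called higher. Unadjusted, 5 members were higher and 2 lower, beside 7.56% and 4.6% of all genes, and 20 lay above 0, beside 50.3%. The widest gap with the lowest p was that of Atp6v1c2, at 1.28 (95% interval 0.72 to 1.84, adjusted p = 0.197). DESeq2 called 1 member higher in the last comparison, Atp6v1c2, beside 0.088% of all genes, and 0 in the others. With the mitochondrial share as a covariate edgeR called Atp6v1g3 lower for Flcn/Tfeb less Flcn, beside 0.0383% of all genes. An effect called in the Flcn or Tfe3 cross and not in the Tfeb cross was therefore not shown to differ between them by edgeR's test over all libraries without covariates. DESeq2 called that difference for Atp6v1c2 between the Tfe3 and Tfeb crosses. Without control Flcn/Tfeb replicate 2 edgeR's test called 1 member in that comparison. The share of all genes called in that fit is not given here, so this call is not read as particular to the pump.

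Promoter sequence was read as a description, since Tfeb and Tfe3 are known to bind the E-box CACGTG and its extended form, the CLEAR element. RefSeq windows of mouse genome GRCm38.p6, from 250 bases before to 50 after a transcription start, were matched by symbol for 25 of the 35 members. The letters CACGTG, which read the same on both strands, occurred in 6 of these 25 genes (24%) beside 8.09% of 27025 genes. The longer TCACGTG, searched on both strands and containing the first, occurred in the same number, 6 (24%), beside 4.29% of all genes. Its palindrome TCACGTGA, the core of the CLEAR element, occurred in 4 (16%) beside 1.12%. That palindrome with G before it and C after it, the full CLEAR element, occurred in 0 of the 25 beside 0.370%. The E-box with its flanks is shown for the 6 genes that hold it, because the motif is the point of comparison with the changes above, and the capitals mark CACGTG.
Atp6v0b, chr4:117887340-117887385, minus strand: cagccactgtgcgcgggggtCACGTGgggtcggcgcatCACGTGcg
Atp6v0d1, chr8:105566042-105566087, minus strand: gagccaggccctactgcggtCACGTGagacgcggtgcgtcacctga
Atp6v0e, chr17:26676379-26676424, plus strand: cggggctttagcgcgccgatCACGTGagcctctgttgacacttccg
Atp6v1a, chr16:44139365-44139410, minus strand: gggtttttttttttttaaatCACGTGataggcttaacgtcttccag
Ccdc115, chr1:34439688-34439733, minus strand: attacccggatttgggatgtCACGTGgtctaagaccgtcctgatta
Vma21, chrX:71816686-71816731, plus strand: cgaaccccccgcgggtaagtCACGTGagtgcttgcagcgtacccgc

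All 6 genes with the motif belong to the widely used class, and none was called in a cross by edgeR's test over all its libraries without covariates. Atp6v0b holds it in 2 places, with first letters 36 and 18 bases before the start, and Vma21 holds a further copy in the window of another start. The windows of Atp6v1g3, Atp6v1c2, Atp6v1b1, Atp6v0a4 and Atp6v1d do not hold these letters, and Atp6v0d2 is not among the matched genes. The 6 genes with CACGTG had median log2 fold changes of 0.15, −0.07 and 0.03 in the Flcn, Tfeb and Tfe3 crosses. The 17 tested genes without it had medians of 0.30, 0.07 and 0.11. These 17 include the kidney-enriched Atp6v1g3, Atp6v1c2, Atp6v1b1 and Atp6v0a4, so the medians differ in class as well as in motif. A link between motif and change was not tested.

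Genes that work beside the pump were counted in lists chosen with earlier results of these data known. Of 19 tested collecting duct genes of acid and base transport, 4 rose in the Flcn cross, with a list median of 0.35. They were Atp12a (1.44), a proton-potassium pump, Aqp6 (2.06), Rhcg (0.72) and Car12 (0.62), a carbonic anhydrase. The list shares genes with the intercalated cell markers above, Slc4a1, Slc26a4, Aqp6 and Rhcg among them, so the lists are not independent. For the Tfe3 cross 4 of 20 rose, Atp12a (0.999), Aqp6 (1.81), Car12 (0.76) and the anion exchanger Slc26a7 (1.02), with a median of 0.23. Within the Tfeb cross 0 of 19 were called by edgeR's quasi-likelihood test and 0 without adjustment, with a median of 0.00064. At an unadjusted p under 0.05, 10 of these genes were higher in the Flcn cross and 7 in the Tfe3 cross, with 0 lower in both. Of all genes, 0.453%, 0.337% and 0% were called higher in the Flcn, Tfe3 and Tfeb crosses, and 5.25%, 3.67% and 1.85% were higher without adjustment. Of the lysosomal ion channels and nutrient-sensing partners of the pump, 1 of 24 rose in the Flcn cross, Rragd (1.13), a Rag GTPase. In the Tfe3 cross 2 of 25 did, Rragd (1.34) and the endosomal chloride exchanger Clcn5 (0.48). For the Tfeb cross 0 of 25 were called, with or without adjustment. Unadjusted, 5 were higher and 0 lower in the Flcn cross, beside 5.25% and 3.81% of all genes. The Tfe3 cross had 2 higher and 2 lower, beside 3.67% and 3.48%. The medians of this list were 0.10, −0.04 and 0.02 in the Flcn, Tfe3 and Tfeb crosses.

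In the lists for the other cell types of the kidney only single genes were called. In the Flcn cross 1 of 9 principal cell markers rose, Scnn1b (0.58), and 1 of 7 thick ascending limb and distal tubule markers, Umod (1.001), which also rose in the Tfe3 cross (0.71). That list had 4 of 7 genes above 0 in the Flcn cross and 2 of 6 in the Tfe3 cross, beside 48.5% and 51.9% of all genes. Its medians were 0.05 and −0.08. At an unadjusted p under 0.05 it held 1 gene higher and 1 lower in the Flcn cross, and 1 higher and 0 lower in the Tfe3 cross. Without adjustment, 2 principal cell markers were higher and 1 lower in the Flcn cross, 3 higher and 3 lower in the Tfe3 cross, and 0 higher and 2 lower in the Tfeb cross. Of all genes, edgeR's test called 0.453%, 0.337% and 0% higher in the Flcn, Tfe3 and Tfeb crosses. At an unadjusted p under 0.05 the shares of all genes were 5.25%, 3.67% and 1.85% higher and 3.81%, 3.48% and 3.21% lower. Of 8 proximal tubule markers 0 were called in any cross by edgeR's quasi-likelihood test, with unadjusted calls of 1 lower in the Flcn cross and 2 lower in the Tfe3 cross. The proximal tubule medians were −0.21, −0.18 and −0.18 in the Flcn, Tfeb and Tfe3 crosses. Proximal tubule markers above 0 numbered 0, 1 and 2 of 8 in that order, beside 48.5%, 47.9% and 51.9% of all genes. Macrophage, podocyte and neuron markers were likewise not called by that test. Without adjustment, 1 of 8 macrophage markers was higher in the Flcn cross and 1 of 8 in the Tfeb cross, and 1 of 5 podocyte markers was lower in the Flcn cross. Podocyte markers above 0 numbered 0, 1 and 4 of 5 in the Flcn, Tfeb and Tfe3 crosses, and macrophage markers 5 of 8, 8 of 8 and 5 of 9.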

How the data were processed

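Whole-kidney RNA (QuantSeq 3′ mRNA, single reads of 100 bases) was measured in 35 libraries. The authors deposited raw counts per gene. By the study's methods reads were trimmed with bbduk, aligned with STAR to mm10 and counted with HTSeq-count, whereas the submitters' processing notes name Trim Galore and STAR with mm10. The strand setting of the counting is not given in the sources used here. Non-gene tallies, 43.4 to 67.9% of the counts in the 26 libraries that list them, stayed out of library sizes.

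The members and lists were chosen with earlier results of these data known. Symbols were joined by Ensembl identifier, and 99.6% of genes matched GENCODE M21. Each cross was fitted with edgeR 4.0.16 (R 4.3.3): filterByExpr, TMM scaling, quasi-likelihood test, Benjamini-Hochberg adjustment over all tested genes and a threshold of 0.05, with the set as a term in the Tfe3 cross. Differences between crosses came from 1 joint model. Standard errors are on the log2 scale, and the 95% intervals come from them. CPM values are counts scaled to a common library total with TMM factors computed within each cross. Only the floor uses library totals without these factors. CPM values of different crosses therefore rest on separately computed factors. Nothing in the labels states more than that replicates are biological, so p-values measure the spread between these libraries. Libraries of a group were compared in 63 pairs, and no pair agreed within sampling noise (lowest chi-square per degree of freedom 2.85).

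Named with full statistics were the 5 kidney-enriched isoforms, their 5 counterparts, every member called in 1 of the 6 fits with edgeR over all libraries without added covariates, and in each cross the tested members of highest and lowest fold change. Other members are given by role. Alternatives were RLE size factors, DESeq2 1.42.0, no count filter (at least 1 read), a mean count of 10, the mitochondrial share as covariate, each set alone, the replicate block and each library left out. The marker-sum covariate and the omission of 3 controls were added after seeing the data. On simulated data the scripts recovered 75.5% of 200 genes with a 2-fold change at the size of the Flcn cross, 16% for the Tfeb cross and 82.5% for the Tfe3 cross. Figures were drawn with matplotlib 3.10.9 under Python 3.11.15.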

Additional observations from a re-analysis of the deposited data

Results flagged for a closer look

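Dixon's test at the 95% level was applied to 13 named pump genes in the 5 groups of 4 to 10 libraries, and 5 of 65 values passed it, where chance alone gives about 1 in 20, or 3.25 values. Atp6v1b1 stood at 32.1 CPM in control Flcn replicate 5, below the 40.3 to 42.6 CPM of the other controls of that cross. That library is 1 of the 3 with under 5% mitochondrial counts. Wdr7 stood at 14.7 CPM in Flcn/Tfeb DKO replicate 3, above 8.62 to 9.24 CPM in the other DKO libraries of the cross. Atp6v1g2 stood at 15.1 CPM in control Flcn/Tfe3 replicate 5 against 4.87 to 8.24 CPM. The summed neuron markers of that library were 29.4 CPM. They were 16.9 to 22.3 CPM in the other controls of its set C and 18.1 to 118 CPM in those of set B. Its mitochondrial share of 7.80% was the highest of that cross. Atp6v0a4 stood at 199 CPM in Flcn/Tfe3 DKO replicate 2 against 129.9 to 161 CPM. Atp6v0a1 stood at 45.3 CPM in Flcn/Tfe3 DKO replicate 4 against 15.04 to 29.7 CPM.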

How the results depend on the processing

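Over the 39 fold changes of the 13 members named with full statistics (not Atp6v0b, Atp6v1e1, Atp6v1f, Atp6ap1 and Atp6ap2, which alternatives called), 282 of 325 alternative values kept their direction and their side of the threshold, 10 fell below it, 7 passed it and 26 changed sign. Leaving out 1 library at a time kept 425 of 455 values, and 29 values of 11 results changed sign, most of them near 0. The causes were not tested.

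Members called in the Flcn cross numbered 5 with DESeq2, 7 with the mitochondrial share as covariate, 0 with the marker sum as covariate (which separated the groups there), and 2 to 3 without single libraries. In the Tfe3 cross they numbered 5 with DESeq2, 0 with the marker sum and 3 without any single library. With the replicate block 1 was called there, Atp6v1c2 (1.33, adjusted p = 0.049), while Atp6v0d2 stood at 0.98 (adjusted p = 0.409) and Atp6v1d at 0.37, and 2 genes were called in all. Same-numbered libraries correlated between −0.34 and 0.32 in their deviations, above 0.1 in 2 of 5, 1 of 3 and 1 of 8 pairs of the Flcn, Tfeb and Tfe3 crosses, so the numbers were not taken as pairs. In the Tfeb cross the replicate block gave 0.057 for Atp6v1c2. For Flcn/Tfeb less Flcn 1 member was called with the mitochondrial share, Atp6v1g3, where 5 genes were called in all. For Flcn/Tfe3 less Flcn 4 were called with set C alone, where 456 genes were called, namely Atp6v1f, Atp6v1g1, Atp6v1g3 and Atp6v0b. For Flcn/Tfe3 less Flcn/Tfeb 1 was called with DESeq2, and 0 to 1 without single libraries, the 1 without control Flcn/Tfeb replicate 2. For that last fit the share of all genes called is not given here.

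The median of the kidney-enriched isoforms in the Tfeb cross was 0.32 with the mitochondrial share, and −0.0076 to 0.22 without single libraries. That of the other members there ranged from −0.064 to 0.097 without single libraries.

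With the marker sum in the Flcn cross, signs changed for Atp6v1b1 (0.36), Atp6v1c1 (−0.16), Atp6v1g1 (−0.40), Atp6v0a1 (−0.70) and Atp6v1g2 (−0.21), and in the Tfe3 cross for Atp6v1b1 (−0.13), Atp6v0a4 (−0.12) and Atp6v1g1 (0.38). With the mitochondrial share in the Tfeb cross they changed for Atp6v1c2 (0.33), Atp6v1g3 (−0.12), Atp6v1c1 (−0.14), Atp6v0d1 (0.64) and Atp6v1d (0.49). Atp6v0a1 in the Tfe3 cross was 0.012 with the mitochondrial share, 0.012 without a filter and 0.058 in set C alone. Set B alone gave 0.095 for Atp6v1g1 and −0.22 for Atp6v1g2, and set C alone −0.18 for Atp6v1c1. Without the controls under 5% mitochondrial counts, Atp6v1g1 (−0.076) and Atp6v1g2 (−0.084) changed sign in the Flcn cross, and Atp6v1c2 (0.22), Atp6v1c1 (−0.014), Atp6v0d1 (0.32) and Atp6v1d (0.24) in the Tfeb cross.

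Without single libraries, signs changed in the Tfeb cross for Atp6v1b1 (−0.020 to 0.27), Atp6v1b2 (−0.070 to 0.19), Atp6v1c1 (−0.014 to 0.23), Atp6v1c2 (−0.23 to 0.22), Atp6v1d (−0.32 to 0.24), Atp6v0a4 (−0.11 to 0.024) and Atp6v0d1 (−0.38 to 0.32). They changed in the Flcn cross for Atp6v1b1 (−0.091 to 0.051) and in the Tfe3 cross for Atp6v0a1 (−0.11 to 0.16), Atp6v1c1 (−0.028 to 0.082) and Atp6v1g2 (−0.074 to 0.15).

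With 3 to 10 libraries a group and 1652649 to 4239356 counts each, Atp6v1g2, which lies near the floor, had the largest standard error of the tested members in each of the 3 crosses.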
